A study of Mus musculus with 2 samples.

Results

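The enzymes that add methyl groups to histone lysines and the enzymes that remove them were examined as a group of 37 genes. The group was a named list: 20 genes of methyltransferases and their Polycomb partners, and 17 genes of demethylases. All 37 were found among the 21883 protein-coding genes of a RefSeq gene table of the mouse genome build GRCm38 (mm10), with Setd8 listed there under the symbol Kmt5a. The data were ATAC-seq, an assay in which the transposase Tn5 inserts sequencing adapters into accessible DNA, so that the number of insertions at a site reports how open its chromatin is. There was 1 library from a Gabra3 knockout mouse and 1 from a wild-type littermate. Gabra3 encodes a subunit of the GABA-A receptor, a chloride channel opened by the inhibitory transmitter GABA. Both libraries were from adult C57BL/6 neural retina that had been flash-frozen, and each was made from 20000 nuclei. The labels do not say which part of Gabra3 the knockout allele lacks, whether the loss is limited to some cells, or how many retinas went into a library. With 1 library per genotype, every difference below compares these libraries and has no replicate check.

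Histone lysine methylation is written by enzymes with a catalytic SET domain, or in the case of Dot1l by an enzyme of another fold, and it is erased by flavin-dependent demethylases and by JmjC-domain demethylases. Methylation of lysine 4 on histone H3 (H3K4) and of H3K36 and H3K79 is found at transcribed genes, whereas methylation of H3K9 and H3K27 is found at heterochromatin and at genes silenced by Polycomb. In the mouse retina, Ezh2 is known for its part in progenitor proliferation and in the timing of differentiation, Kdm1a for the maturation of rods, and Kdm6b for the formation of some bipolar cells. Mature rods, which make up most retinal nuclei in the mouse, have an inverted nuclear architecture with heterochromatin in the nuclear centre.

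The knockout library held 7646373 insertions and the wild-type library 7635799, after removal of poorly placed and repeated reads. Of the autosomal insertions, 18.8% in the knockout and 19.6% in wild type fell in the 36840 open regions called on both libraries together. Ratios below are log2 of knockout over wild type, scaled to those insertions, and scaling to all autosomal insertions instead lowers every log2 ratio by 0.06. Intervals are exact (Clopper-Pearson) 95% intervals that cover counting error only, since 1 library per genotype gives no measure of variation between animals. Reads without molecular identifiers are not known to be independent molecules, so even counting error may be understated. The Gabra3 gene body held 121 insertions in the knockout and 126 in wild type, so the libraries did not show the knockout by themselves. The tissue label was checked against markers. Of 8 rod genes 7 had an open region at the promoter, as with Reep6 at 202 insertions in the knockout and 209 in wild type, whereas 0 of 4 vascular and 1 of 4 microglial markers did. Open promoters were also found at 2 of 5 retinal pigment epithelium markers, with Mitf at 124 insertions in the knockout and 118 in wild type, and at 2 of 4 lens markers. The lens gene Bfsp1 was the most open of these, with 173 insertions in the knockout and 175 in wild type. Others on these lists were low, such as Rpe65 with 2 in the knockout and 1 in wild type, and Cryaa with 11 in the knockout and 10 in wild type. Open promoters were found at 4 of 7 cone, 4 of 6 bipolar, 2 of 6 amacrine, 2 of 3 horizontal, 4 of 6 ganglion cell and 4 of 6 Muller glia markers. Of all protein-coding promoters 50.6% were open, so counts near that share do not mark a cell type. The 6 retinal ganglion cell markers summed to 116 insertions in the knockout and 77 in wild type (log2 ratio 0.65, interval 0.22 to 1.08). Each of these 6 genes held fewer than 100 insertions over both libraries, and the intervals of all other marker sets included 0. The log2 ratios of those sets lay between -0.50 (-1.24 to 0.20) for horizontal and 0.27 (-0.04 to 0.59) for cone markers. The part of cell composition in the ratios below was not tested. In bulk retina, a change in the number of cells of a type cannot be told apart from a change of accessibility in each cell.

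Most of the genes were open at their promoter in both retinas. Insertions were counted within 500 bp of whichever end of a gene held more of them, called its promoter here, and a pooled open region overlapped it for 34 of the 37 genes (91.9%), against 50.6% of all protein-coding genes. Called in each library alone, 31 of the 37 promoters were open in the knockout and 31 in wild type, where 46.4% of all promoters were open in the knockout and 46.8% in wild type. At least 100 insertions over both libraries fell in 27 of the 37 promoters (73%), against 34.3% of all promoters. The median gene of the group held 204 insertions, at percentile 82.3 of all protein-coding genes, whose median was 26. Most of the promoters were therefore among the more accessible ones in this tissue.

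**Figure D1:**
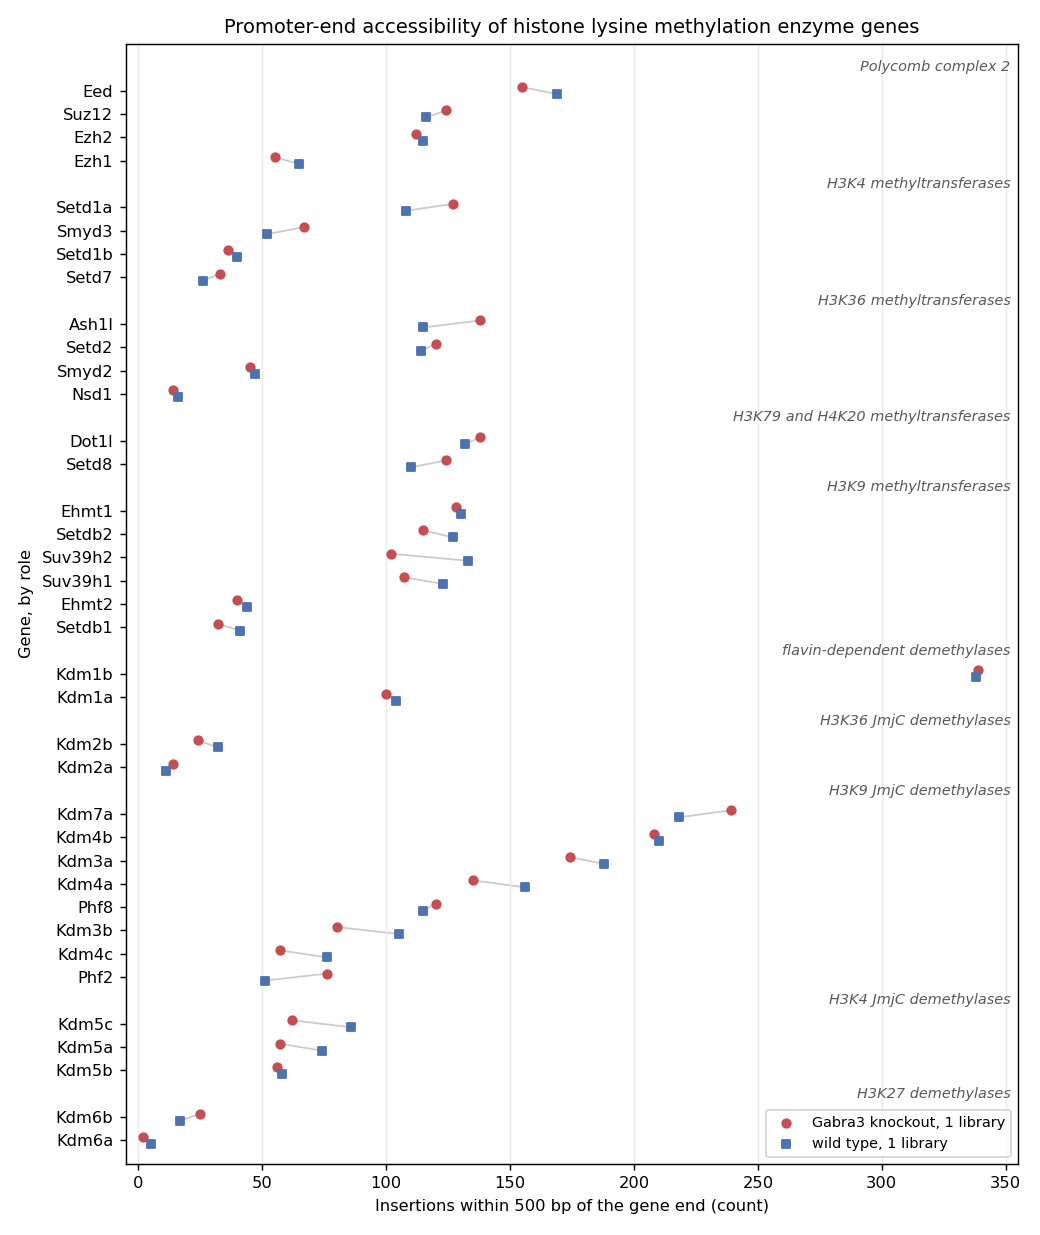
Tn5 insertions (count) within 500 bp of the promoter end of each of the 37 genes, grouped by role, with filled circles for the Gabra3 knockout library and filled squares for the wild-type library. Kdm1b stands alone at 339 insertions in the knockout and 338 in wild type, and the lowest gene, Kdm6a, had 2 in the knockout and 5 in wild type at this gene end.

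Polycomb repressive complex 2 methylates H3K27 through the catalytic subunits Ezh2 and Ezh1, which need the scaffold subunits Eed and Suz12. All 4 genes had over 100 insertions, summed over both libraries. Eed was the most accessible, with 155 insertions in the knockout and 169 in wild type. Suz12 had 124 in the knockout and 116 in wild type, and Ezh2 had 112 in the knockout and 115 in wild type. Ezh1, the paralog known for its expression in cells that no longer divide, had 55 insertions in the knockout and 65 in wild type and was the lowest of the 4. At the strongest annotated start of each gene, Ezh2 exceeded Ezh1 by a factor of 2.27 in the knockout (1.64 to 3.18) and 1.88 in wild type (1.38 to 2.58), so the promoter window of the paralog linked to dividing cells was the more open one in both adult retinas. The Ezh2 gene-end window also holds the end of F830010H11Rik, which is not protein-coding, and its insertions cannot be divided between the genes. No other gene end lies in the Ezh1 window. The 4 promoters together held 446 insertions in the knockout and 465 in wild type, with a log2 ratio of -0.00 (-0.19 to 0.19).

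Among the enzymes that methylate H3K4, Setd1a, the catalytic subunit of a COMPASS complex, had 127 insertions in the knockout and 108 in wild type. Its paralog Setd1b had 36 in the knockout and 40 in wild type at the gene end, and its window also holds the end of Rhof. Smyd3, reported to act on H3K4 and on proteins outside the nucleus, had 67 in the knockout and 52 in wild type. Setd7, which adds a single methyl group to H3K4 and to several other proteins, had 33 in the knockout and 26 in wild type. For H3K36, Ash1l had 138 insertions in the knockout and 115 in wild type, and Setd2, the enzyme responsible for trimethylation of this residue along transcribed genes, had 120 in the knockout and 114 in wild type. Smyd2 was lower, with 45 in the knockout and 47 in wild type, and Nsd1 was near the bottom of the group, with 14 in the knockout and 16 in wild type. Dot1l, the H3K79 methyltransferase, had 138 in the knockout and 132 in wild type. Setd8, which monomethylates H4K20 and is essential in dividing cells, had 124 in the knockout and 110 in wild type.

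The 6 H3K9 methyltransferases fell into an open set and a weakly open pair. Ehmt1, which with Ehmt2 (G9a) forms the main enzyme for H3K9 dimethylation in euchromatin, had 128 insertions in the knockout and 130 in wild type. Setdb2 had 115 in the knockout and 127 in wild type, in a window shared with the end of Cab39l. The enzymes of constitutive heterochromatin stood close to these, Suv39h1 with 107 in the knockout and 123 in wild type, and Suv39h2 with 102 in the knockout and 133 in wild type. Ehmt2 and Setdb1, the enzyme recruited to retroelements by KAP1, were lower. Ehmt2 had 40 insertions in the knockout and 44 in wild type, and Setdb1 had 32 in the knockout and 41 in wild type. Partner and paralog thus differed in promoter accessibility: Ehmt1 exceeded Ehmt2 by a factor of 3.23 in the knockout (2.25 to 4.72) and 2.98 in wild type (2.10 to 4.29). Setdb2 exceeded Setdb1 by 3.59 in the knockout (2.41 to 5.50) and 3.10 in wild type (2.16 to 4.52). Between Suv39h2 and Suv39h1 the factor was 0.95 in the knockout (0.72 to 1.26) and 1.08 in wild type (0.84 to 1.39), with intervals that include 1. These factors compare windows of equal length within a library, and differences in base composition between promoters were not corrected.

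The most accessible promoter of the group was that of Kdm1b (LSD2), a flavin-dependent H3K4 demethylase known in mouse oocytes for the setting of imprints. It held 339 insertions in the knockout and 338 in wild type, which placed it at rank 12 of all 21883 protein-coding genes. The Kdm1b window also holds the end of Tpmt, a gene that starts from the same place in the opposite direction, and the insertions cannot be divided between the pair. Its paralog Kdm1a (LSD1), a subunit of the CoREST repressor, had 100 in the knockout and 104 in wild type. At their strongest starts, Kdm1b exceeded Kdm1a by a factor of 3.40 in the knockout (2.71 to 4.28) and 3.26 in wild type (2.61 to 4.09).

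All 8 JmjC demethylases of H3K9 had over 100 insertions, summed in the same way. Kdm7a, which removes dimethyl marks from H3K9 and H3K27, came second in the group with 239 in the knockout and 218 in wild type. Kdm4b had 208 in the knockout and 210 in wild type, Kdm3a had 174 in the knockout and 188 in wild type, and Kdm4a had 135 in the knockout and 156 in wild type. Phf8, an X-linked enzyme of H3K9 and H4K20, had 120 in the knockout and 115 in wild type. The lower members were Kdm3b with 80 in the knockout and 105 in wild type, Kdm4c with 57 in the knockout and 76 in wild type, and Phf2 with 76 in the knockout and 51 in wild type. Phf2 was the only one of these 3 with more insertions in the knockout. Of the KDM5 family, which removes trimethylation of H3K4, Kdm5c had 62 insertions in the knockout and 86 in wild type. Kdm5a had 57 in the knockout and 74 in wild type, in a window shared with Ccdc77, and Kdm5b had 56 in the knockout and 58 in wild type. The H3K36 demethylases Kdm2a and Kdm2b and the H3K27 demethylases Kdm6a and Kdm6b had fewer than 60 insertions each over both libraries at the gene end. Kdm2a had 14 in the knockout and 11 in wild type, and Kdm2b had 24 in the knockout and 32 in wild type. Kdm6b had 25 in the knockout and 17 in wild type, and Kdm6a had 2 in the knockout and 5 in wild type. The Kdm2a window is shared with the end of the coding gene 9430078G10Rik and the Kdm6b window with that of Dnah2. The Kdm2b window is shared with the end of A930024E05Rik, which is not protein-coding.

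For several of these low genes the accessible start lay inside the gene table's outer end. The promoter sequences of RefSeq, which run from 250 bases before to 50 bases after an annotated start, covered 28 of the 37 genes. They are printed here for the genes on which the results turn, in lower case from 5′ to 3′ on the coding strand, with CG dinucleotides in capitals. Kdm6a, the X-linked H3K27 demethylase also called UTX, lies at chrX:18160862-18279936 and has an annotated start 1713 bp inside the gene end. That start held 120 insertions in the knockout and 129 in wild type (log2 ratio -0.04), at percentile 85.3 of all genes with a RefSeq start. Kdm4c, at chr4:74242497-74405864, has an outer start with 57 insertions in the knockout and 76 in wild type and an inner start 9382 bp into the gene with 164 in the knockout and 165 in wild type (log2 ratio 0.05). Kdm2b, which binds unmethylated CpG islands and brings a variant Polycomb complex 1 to them, lies on the minus strand at chr5:122870664-122989270. Its outer start had 23 insertions in the knockout and 29 in wild type, and the inner start 88920 bp into the gene had 134 in the knockout and 144 in wild type (log2 ratio -0.04). In each of these genes the inner promoter was the more accessible one in both retinas, and the outer ends of Kdm4c and Kdm2b were also called open in both. The outer Kdm4c promoter holds 0 CG dinucleotides, and in that sequence alone the capitals mark GGATTA, the reverse complement of TAATCC, the core bound by the photoreceptor homeodomain factor CRX, which occurs 2 times. That search was made on either strand and chosen after the sequence had been seen. The sequences are of GRCm38.p6, on the plus strand at chrX:18162325-18162624 for Kdm6a, chr4:74242247-74242546 for the outer and chr4:74251629-74251928 for the inner Kdm4c start, and on the minus strand at chr5:122989050-122989349 for the outer and chr5:122900301-122900600 for the inner Kdm2b start.
Kdm6a: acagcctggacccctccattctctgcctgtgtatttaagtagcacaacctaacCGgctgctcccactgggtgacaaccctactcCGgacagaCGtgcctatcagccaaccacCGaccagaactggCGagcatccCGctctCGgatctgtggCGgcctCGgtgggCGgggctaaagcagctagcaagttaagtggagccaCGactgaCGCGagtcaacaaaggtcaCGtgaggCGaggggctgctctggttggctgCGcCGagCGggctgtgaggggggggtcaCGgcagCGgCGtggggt
Kdm4c outer start: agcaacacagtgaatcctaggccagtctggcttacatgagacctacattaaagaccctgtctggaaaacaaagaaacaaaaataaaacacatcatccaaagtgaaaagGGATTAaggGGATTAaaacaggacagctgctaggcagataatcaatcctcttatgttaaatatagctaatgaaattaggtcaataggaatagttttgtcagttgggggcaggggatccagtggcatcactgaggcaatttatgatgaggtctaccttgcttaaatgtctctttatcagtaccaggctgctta
Kdm4c inner start: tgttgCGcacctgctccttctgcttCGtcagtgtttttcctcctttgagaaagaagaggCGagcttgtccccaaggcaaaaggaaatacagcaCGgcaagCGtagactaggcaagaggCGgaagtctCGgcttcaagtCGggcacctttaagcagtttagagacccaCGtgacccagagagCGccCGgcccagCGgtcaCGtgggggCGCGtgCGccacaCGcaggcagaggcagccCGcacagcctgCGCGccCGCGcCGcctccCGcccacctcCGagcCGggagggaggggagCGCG
Kdm2b outer start: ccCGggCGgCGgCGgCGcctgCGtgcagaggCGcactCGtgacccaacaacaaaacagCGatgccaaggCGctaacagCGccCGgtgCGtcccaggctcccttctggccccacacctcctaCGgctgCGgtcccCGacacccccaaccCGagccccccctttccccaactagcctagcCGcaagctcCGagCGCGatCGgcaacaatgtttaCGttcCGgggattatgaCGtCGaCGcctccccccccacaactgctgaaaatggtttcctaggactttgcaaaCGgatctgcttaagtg
Kdm2b inner start: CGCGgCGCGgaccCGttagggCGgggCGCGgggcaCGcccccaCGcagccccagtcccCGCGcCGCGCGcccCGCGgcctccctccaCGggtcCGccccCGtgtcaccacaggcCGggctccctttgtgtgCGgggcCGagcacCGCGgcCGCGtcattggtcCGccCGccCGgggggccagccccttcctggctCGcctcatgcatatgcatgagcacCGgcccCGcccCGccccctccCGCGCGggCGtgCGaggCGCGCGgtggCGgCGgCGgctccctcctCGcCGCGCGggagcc

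Other low genes had open regions a short way in, where no RefSeq start was used. Kdm2a, at chr19:4316144-4398721, had a region 1650 bp wide centred 1.25 kb inside its end, the widest at any promoter of the group, with 158 insertions in the knockout and 163 in wild type. Nsd1, at chr13:55209782-55318325, had a region 1.82 kb inside its end with 46 insertions in the knockout and 40 in wild type. Setd8 had a second annotated start 5569 bp into the gene that was nearly as open as the first, with 98 insertions in the knockout and 95 in wild type. Of the 10 genes with fewer than 100 insertions at the gene end, Kdm6a and Kdm2b thus passed 100 at another annotated start, and Kdm2a and Kdm6b in an open region inside the gene. Kdm5b, with 56 insertions in the knockout and 58 in wild type at its end, had a stronger region upstream, at -3.20 kb from that end, with 96 in the knockout and 103 in wild type, and a further one 7.47 kb inside the gene with 50 in the knockout and 50 in wild type.

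**Figure D2:**
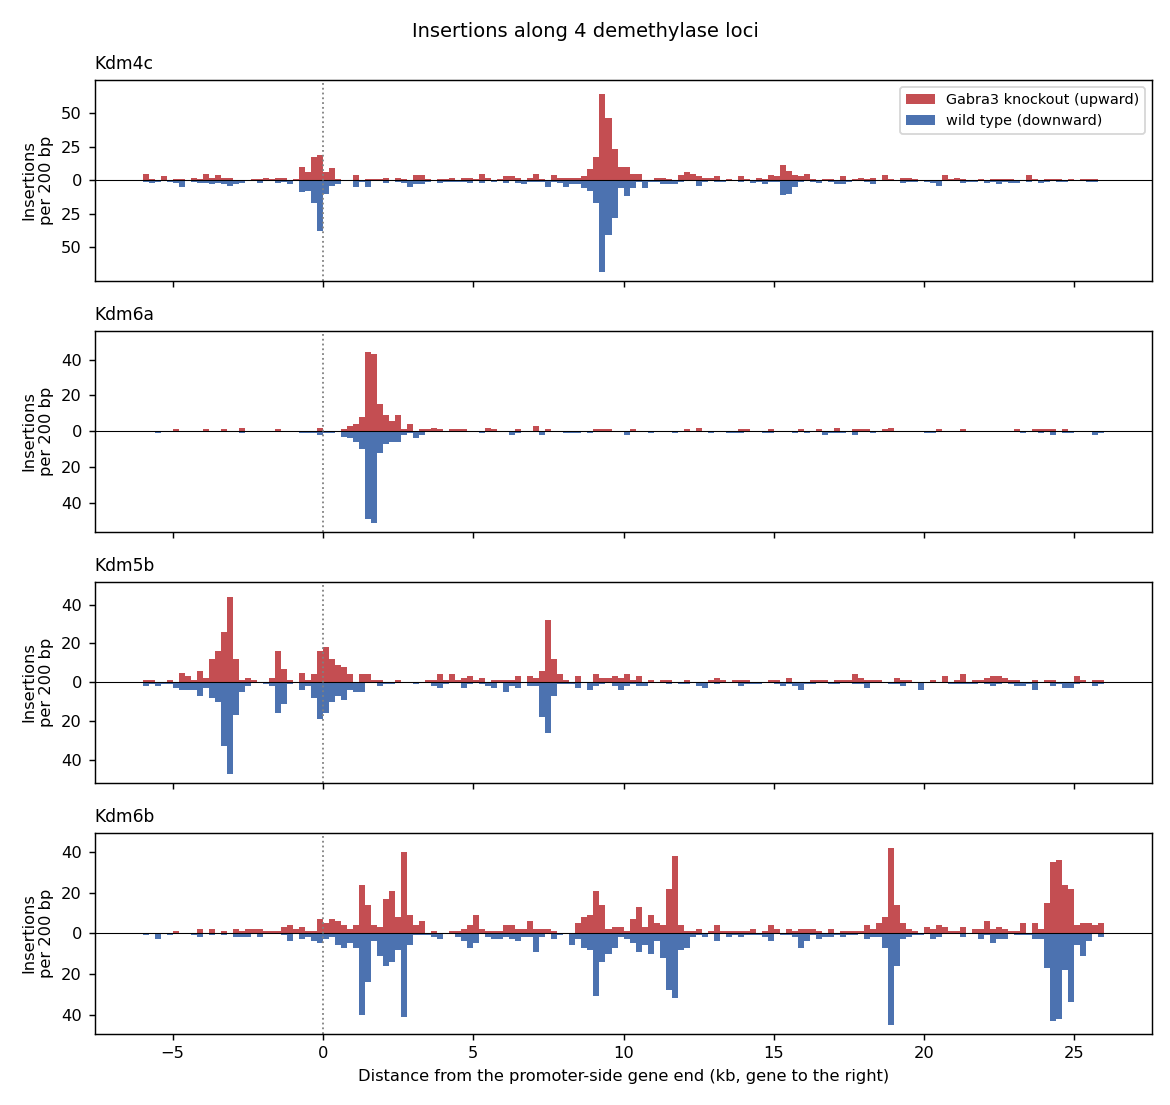
Tn5 insertions (count per bin) along Kdm4c, Kdm6a, Kdm5b and Kdm6b, with the Gabra3 knockout drawn upward and wild type downward in each. Position is the distance in kb from the promoter end towards the gene body. The strongest region is centred 9.43 kb inside Kdm4c, 1.71 kb inside Kdm6a and at -3.20 kb from the end of Kdm5b. Kdm6b carries 5 regions within its body.

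In all, 99 pooled open regions overlapped the genes and the 5 kb on either side. Of these, 34 lay at promoters, with a median width of 900 bp and a median of 110.5 insertions in the knockout and 115.5 in wild type. The other 65 were narrower, at a median of 400 bp, with a median of 17 insertions in the knockout and 17 in wild type, and 49 of them lay inside the genes. A single region was found at 9 genes, 2 or 3 at 18 genes and 4 or more at 10 genes, with the most, 6, at Smyd3, Kdm3b and Kdm6b. Smyd3 is 566 kb long, whereas Kdm6b, at chr11:69398508-69420367, spans 21.9 kb. Counted over the gene and 5 kb either side, Kdm6b had 50.4 insertions per kb over both libraries, the densest neighbourhood of the group and rank 252 of all genes. Setd8 followed with 26.0 per kb and Kdm6a was lowest with 4.82 per kb.

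Kdm6b (JMJD3) is the H3K27 demethylase known for rapid induction by signals such as inflammatory stimuli. Its accessibility was spread over 5 regions in the gene rather than held at the outer end. The region 2.49 kb inside the end had 95 insertions in the knockout and 85 in wild type. The regions 9.12 kb, 11.6 kb and 18.9 kb inside had 42, 63 and 66 insertions in the knockout, against 52, 70 and 68 in wild type. The region 1.39 kb inside had 40 in the knockout and 67 in wild type (log2 ratio -0.68, -1.29 to -0.10). The nearest neighbour did not share its lower count in the knockout, with a log2 ratio of 0.22 (-0.22 to 0.66). Over the whole neighbourhood, Kdm6b had 761 insertions in the knockout and 844 in wild type (log2 ratio -0.09, -0.23 to 0.05). The neighbourhood includes a region of 132 insertions in the knockout and 156 in wild type that lies at the ends of Cyb5d1, Naa38 and Tmem88.

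Between the knockout and wild-type retinas, the promoters of the group differed little. They held 3580 insertions in the knockout and 3667 in wild type, a log2 ratio of 0.02 (-0.04 to 0.09), which is -0.04 (-0.10 to 0.03) when scaled to all autosomal insertions. Of the 27 promoters with at least 100 insertions, 1 was 1.5-fold or more higher in the knockout, where 0.520% of all such promoters were, and 0 were 1.5-fold or more lower, where 0.226% of all were. The interval lay wholly above 0 at that 1 promoter, against 1.80% of all, and wholly below 0 at 0 promoters, against 0.973% of all. Of the 27, 11 had a log2 ratio below 0 (40.7%), against 45.0% of all. The median log2 ratio was 0.02 over the 27 and 0.02 over all 7506 promoters with that depth, with an SD of 0.25 and 0.19 between promoters. The intervals of the 27 reached 0.22 to 0.56 to either side on the log2 scale, with a median of 0.38, which sets the size of difference that counting error alone would hide at a single promoter.

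**Figure D3:**
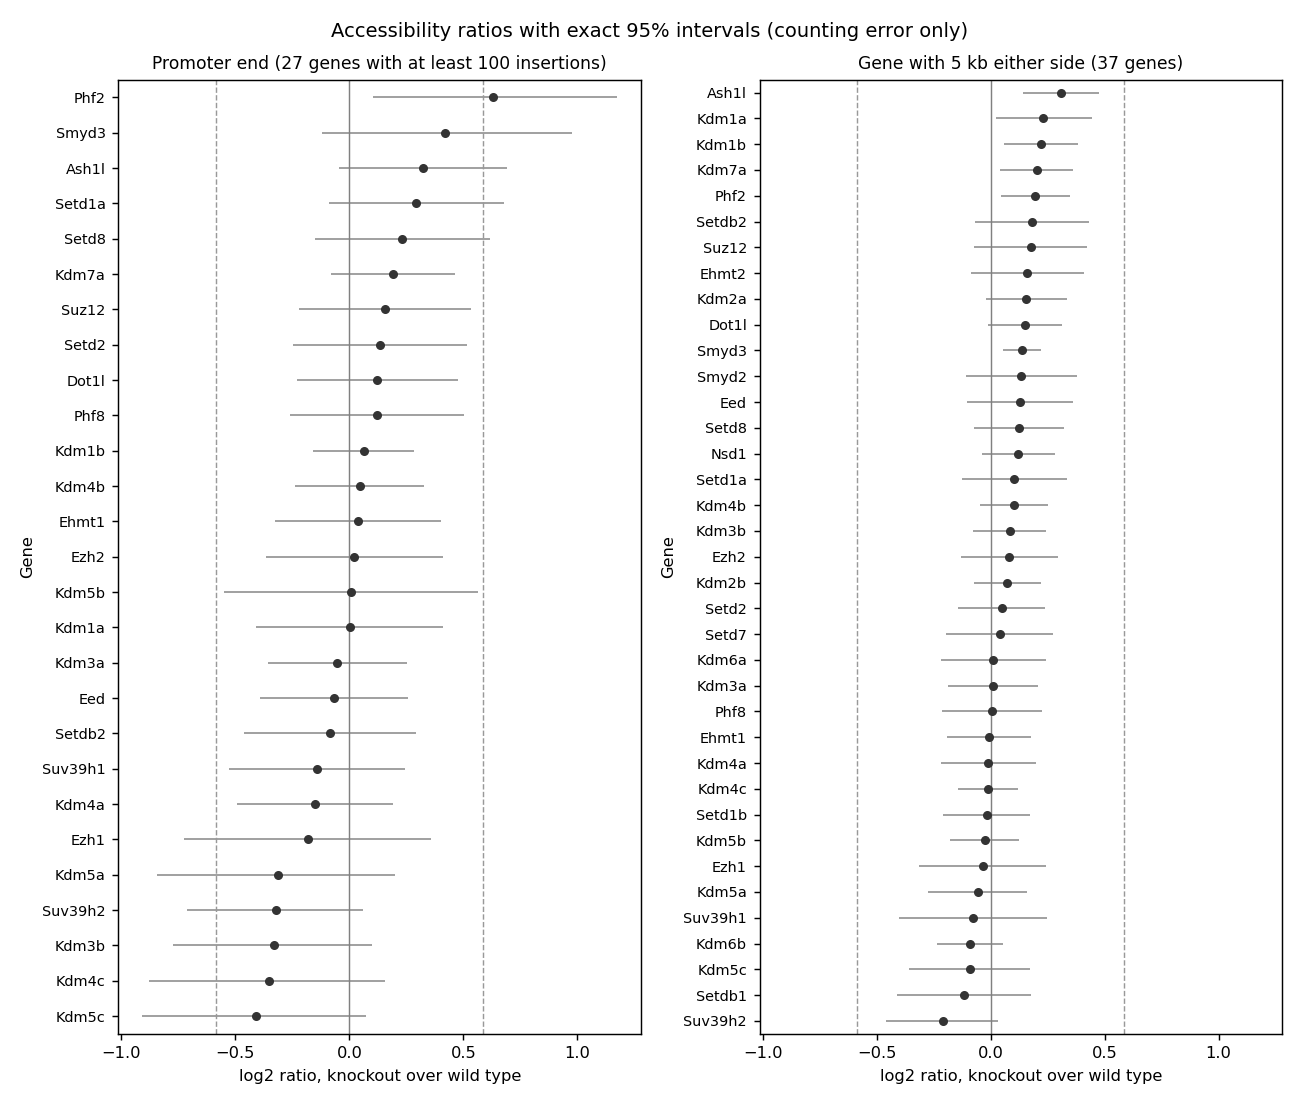
Log2 ratios of knockout over wild-type insertions at the promoters and over the gene neighbourhoods of the 37 genes, with exact 95% intervals for counting error. Among promoters with at least 100 insertions, the interval of Phf2 alone, 0.10 to 1.18 around 0.63, does not include 0.

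The promoter past 1.5-fold was that of Phf2, a PHD-finger JmjC protein that acts on H3K9 methylation, at chr13:48801750-48870885 on the minus strand. It had 76 insertions in the knockout and 51 in wild type (log2 ratio 0.63, 0.10 to 1.18). Split by strand, the log2 ratio was 0.70 (-0.16 to 1.63) on the plus strand and 0.58 (-0.10 to 1.28) on the minus strand, and both intervals include 0. The open region over the promoter had 69 insertions in the knockout and 44 in wild type (log2 ratio 0.70, 0.14 to 1.29), and the next region 0.93 kb inside the gene had 25 in the knockout and 29 in wild type. In a wider window of 1000 bp either side the log2 ratio was 0.32 (-0.09 to 0.75), and with scaling to all autosomal insertions it was 0.57, short of 1.5-fold. The window is shared with the end of the noncoding gene Phf2os1. Without Phf2, the summed log2 ratio of the group was 0.01 (-0.05 to 0.08). The Phf2 promoter is printed with those of Kdm1b and Kdm7a, the most accessible of the group, because their CG content differs although all are open, again with CG dinucleotides in capitals. They lie in GRCm38.p6 at chr13:48870836-48871135 on the minus strand for Phf2, chr13:47043249-47043548 on the plus strand for Kdm1b and chr6:39206724-39207023 on the minus strand for Kdm7a, and hold 63, 26 and 65 CG dinucleotides.
Phf2: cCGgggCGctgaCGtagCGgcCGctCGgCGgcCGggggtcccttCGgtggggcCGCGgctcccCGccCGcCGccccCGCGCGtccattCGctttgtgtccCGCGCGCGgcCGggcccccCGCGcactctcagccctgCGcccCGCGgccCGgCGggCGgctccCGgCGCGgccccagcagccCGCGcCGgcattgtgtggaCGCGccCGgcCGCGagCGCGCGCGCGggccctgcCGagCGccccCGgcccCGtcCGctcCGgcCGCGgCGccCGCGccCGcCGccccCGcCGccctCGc
Kdm1b: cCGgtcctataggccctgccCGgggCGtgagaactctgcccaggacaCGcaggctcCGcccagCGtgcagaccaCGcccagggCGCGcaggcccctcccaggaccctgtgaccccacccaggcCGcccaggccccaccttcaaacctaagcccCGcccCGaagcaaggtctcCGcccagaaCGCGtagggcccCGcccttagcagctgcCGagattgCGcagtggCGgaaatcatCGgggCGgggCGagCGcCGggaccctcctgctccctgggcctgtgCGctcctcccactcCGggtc
Kdm7a: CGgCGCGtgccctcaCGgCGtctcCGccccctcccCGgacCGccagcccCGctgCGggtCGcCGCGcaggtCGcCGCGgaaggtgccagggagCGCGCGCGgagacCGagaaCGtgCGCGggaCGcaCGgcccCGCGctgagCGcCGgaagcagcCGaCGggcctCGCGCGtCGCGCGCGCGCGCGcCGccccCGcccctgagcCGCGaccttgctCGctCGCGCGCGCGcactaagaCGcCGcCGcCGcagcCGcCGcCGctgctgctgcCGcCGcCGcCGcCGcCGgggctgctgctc

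Among promoters with at least 100 insertions, the next highest ratios were those of Smyd3, with a log2 ratio of 0.42 (-0.12 to 0.98), Ash1l with 0.32 (-0.05 to 0.69), Setd1a with 0.29 (-0.09 to 0.68) and Setd8 with 0.23 (-0.15 to 0.62). The lowest were Kdm5c with -0.41 (-0.91 to 0.07), Kdm4c at its outer start with -0.35 (-0.88 to 0.16), Kdm3b with -0.33 (-0.77 to 0.10), Suv39h2 with -0.32 (-0.71 to 0.06) and Kdm5a with -0.31 (-0.84 to 0.20). Each of these intervals includes 0. Some did not under other settings: for Suv39h2 the interval was -0.77 to -0.002 with all autosomal insertions and -0.73 to -0.01 in windows of 1000 bp, for Kdm3b it was -0.90 to -0.002 with mapping quality of at least 30, and for Kdm4c it was -1.34 to -0.07 in windows of 250 bp. In windows of 250 bp, Kdm4c fell under the minimum of 100 insertions. With all reads counted, repeats included, the interval was 0.05 to 0.69 for Ash1l. The lower count of Suv39h2 in the knockout came from 1 strand, with a log2 ratio of -0.68 (-1.24 to -0.14) among minus-strand reads and 0.06 (-0.50 to 0.62) among plus-strand reads. Over the 27 promoters, both strands had the same direction at 18, and the share over all promoters of that depth was not counted.

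By role, the 4 H3K4 methyltransferases held 263 promoter insertions in the knockout and 226 in wild type (log2 ratio 0.28, 0.02 to 0.54), and the 3 H3K4 demethylases of the KDM5 family held 175 in the knockout and 218 in wild type (log2 ratio -0.26, -0.55 to 0.04). The 6 H3K9 methyltransferases held 524 in the knockout and 598 in wild type (log2 ratio -0.13, -0.30 to 0.04). Which of these intervals includes 0 depended on the scaling. With all autosomal insertions, the log2 ratio was 0.22 (-0.05 to 0.48) for the H3K4 methyltransferases, -0.32 (-0.61 to -0.03) for the KDM5 family and -0.19 (-0.36 to -0.02) for the H3K9 methyltransferases. The 8 H3K9 demethylases held 1089 in the knockout and 1119 in wild type (log2 ratio 0.02), and the 4 H3K36 methyltransferases held 317 in the knockout and 292 in wild type (log2 ratio 0.18, -0.06 to 0.41). Dot1l and Setd8 together held 262 in the knockout and 242 in wild type (log2 ratio 0.17, -0.08 to 0.43), and the flavin-dependent pair held 439 in the knockout and 442 in wild type (log2 ratio 0.05). The roles were summed with the ratios of single genes already known, and no test between roles was made.

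Taken singly, 54 of the open regions at the genes, promoters included, had at least 50 insertions. Of these, 2 were 1.5-fold or more higher in the knockout, where 1.36% of all such regions were, and 1 was 1.5-fold or more lower, where 1.78% of all were. The higher ones were the Phf2 promoter region and a region 7.79 kb inside Setd1b with 34 insertions in the knockout and 20 in wild type (log2 ratio 0.81, -0.01 to 1.70). The lower one was the Kdm6b region 1.39 kb inside the gene. All 49 regions inside the genes and away from promoters held 1435 insertions in the knockout and 1475 in wild type (log2 ratio 0.02, -0.09 to 0.13).

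Over gene neighbourhoods, which include the DNA between open regions, 0 of the 37 genes were 1.5-fold or more higher in the knockout, where 0.365% of all genes with at least 100 insertions were, and 0 were 1.5-fold or more lower, where 0.0658% of all were. The interval lay wholly above 0 at 6 of the 37 (16.2%), against 8.40% of all, and wholly below 0 at 0, against 1.32% of all. The genes of the group are long, with a median of 45.9 kb against 17.2 kb over all protein-coding genes. A higher count narrows an interval, and the part of length and depth in these shares was not tested. Of the 37 genes, 12 had a log2 ratio below 0 (32.4%), against 33.6% of all. The highest was Ash1l, at chr3:88950414-89079375, with 643 insertions in the knockout and 541 in wild type (log2 ratio 0.31, 0.14 to 0.48). Outside its promoter window it had 505 in the knockout and 426 in wild type (log2 ratio 0.30, 0.12 to 0.49), so its difference was not held at the promoter. Kdm1a had 398 in the knockout and 353 in wild type (log2 ratio 0.23, 0.02 to 0.44), and Kdm1b had 672 in the knockout and 601 in wild type (log2 ratio 0.22, 0.06 to 0.38). At both, the promoter counts were close, with a log2 ratio of 0.00 (-0.41 to 0.41) for Kdm1a and 0.06 (-0.16 to 0.28) for Kdm1b, whereas outside the promoter Kdm1b had 333 in the knockout and 263 in wild type (log2 ratio 0.40, 0.16 to 0.64). The other genes with such an interval were Kdm7a, with a log2 ratio of 0.20, Phf2 with 0.20 and Smyd3 with 0.14. The lowest neighbourhood ratios were those of Suv39h2 with -0.21 (-0.46 to 0.03), Setdb1 with -0.12 (-0.41 to 0.18) and Kdm5c with -0.09 (-0.36 to 0.17).

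The level of these neighbourhood ratios moved with the scaling. Summed over the 37 genes, neighbourhoods held 18996 insertions in the knockout and 18683 in wild type, a log2 ratio of 0.08 (0.05 to 0.11), where the median of all genes was 0.06. With all autosomal insertions as the scale the sum was 0.022 (-0.01 to 0.05), and the interval lay above 0 at 1 gene, Ash1l, and below 0 at 2 genes, Suv39h2 with -0.27 (-0.52 to -0.03) and Kdm6b with -0.15 (-0.30 to -0.01). With only the insertions in open regions of the neighbourhoods counted, the sum was 0.017 (-0.03 to 0.07), and the interval lay above 0 at 1 gene, Phf2. The share of autosomal insertions in open regions, 18.8% in the knockout and 19.6% in wild type, moves with these values, and its part in them was not tested. With all autosomal insertions or in open regions only, the shares of all genes with an interval above or below 0 were not counted. The counts of genes under these settings therefore have no background.

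The X-linked genes of the group are Phf8, Suv39h1, Kdm5c and Kdm6a, of which Kdm5c and Kdm6a are known to escape X inactivation in the mouse. Both libraries also held insertions at the Y-linked gene Uty, 38 in the knockout and 34 in wild type, at an open promoter. The part of X copy number in the levels below was not tested. Taken at the strongest annotated start and ranked among the 817 X-linked genes with one, Kdm6a stood at rank 10, Phf8 at rank 13, Suv39h1 at rank 17 and Kdm5c at rank 81. By gene end, open X-linked genes had a median of 79 insertions and open autosomal genes 157. Phf8, Suv39h1 and Kdm5c were above that X-linked median, with 235, 230 and 148 insertions over both libraries. Kdm6a was far below it by this measure, with 7 insertions and no open region at its gene end. Summed at the gene ends, with Kdm6a at its low end, the X-linked genes of the group held 291 in the knockout and 329 in wild type. Their log2 ratio was -0.12 (-0.35 to 0.11), against 0.04 (-0.03 to 0.11) for the 33 autosomal genes. Over all X-linked genes the log2 ratio was -0.03 and over all autosomal genes 0.02.

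Aligned at the annotated starts, the insertions had the usual promoter shape in both retinas. Over the 24 genes of the group whose start held at least 100 insertions, there were on average 131 insertions per start in the knockout and 133 in wild type within 500 bp, against 116 in the knockout and 119 in wild type at 6811 other starts. The width of the signal at half-height was 350 bp in both libraries and in both sets. Of the insertions within 500 bp, 42.7% in the knockout and 41.1% in wild type lay downstream of the start, against 42.6% in the knockout and 41.4% in wild type at the other starts.

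**Figure D4:**
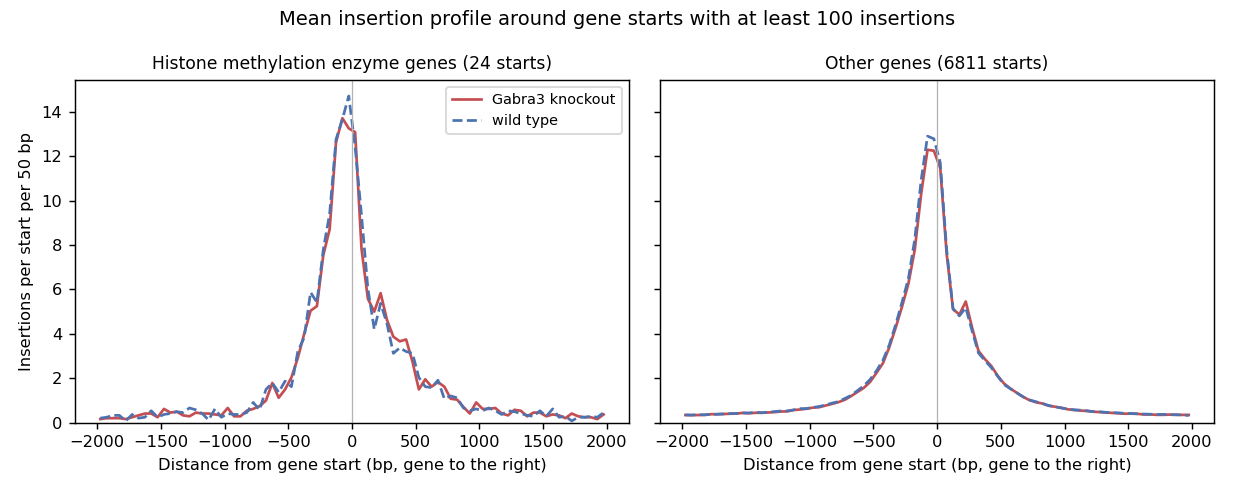
Mean Tn5 insertions per start (count per bin) by distance from the annotated start in bp, for 24 genes of the group and 6811 other genes whose start held at least 100 insertions, in the Gabra3 knockout and in wild type. All curves peak within 100 bp upstream of the start and have a half-height width of 350 bp.

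The promoters of the group were rich in CG dinucleotides. At the strongest start of each of the 28 genes with a RefSeq sequence, the median was 28 CG dinucleotides in 300 bases, with a range of 13 to 65, against a median of 14 over 17491 genes and 24 over the 6835 genes whose start held at least 100 insertions. At least 20 were found in 21 of the 28 (75.0%), against 37.8% of all genes and 70.1% of those with at least 100 insertions. The median GC content was 64.5%, against 57.0% of all genes. Within the 28, CG count and insertions were only weakly ordered together (Spearman 0.19 over 28 genes), near the value of 0.27 over the 6835 genes whose start held at least 100 insertions and below the 0.77 over all 17491. Phf2, with 63 CG dinucleotides, had fewer insertions than Kdm6a, with 21.

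**Figure D5:**
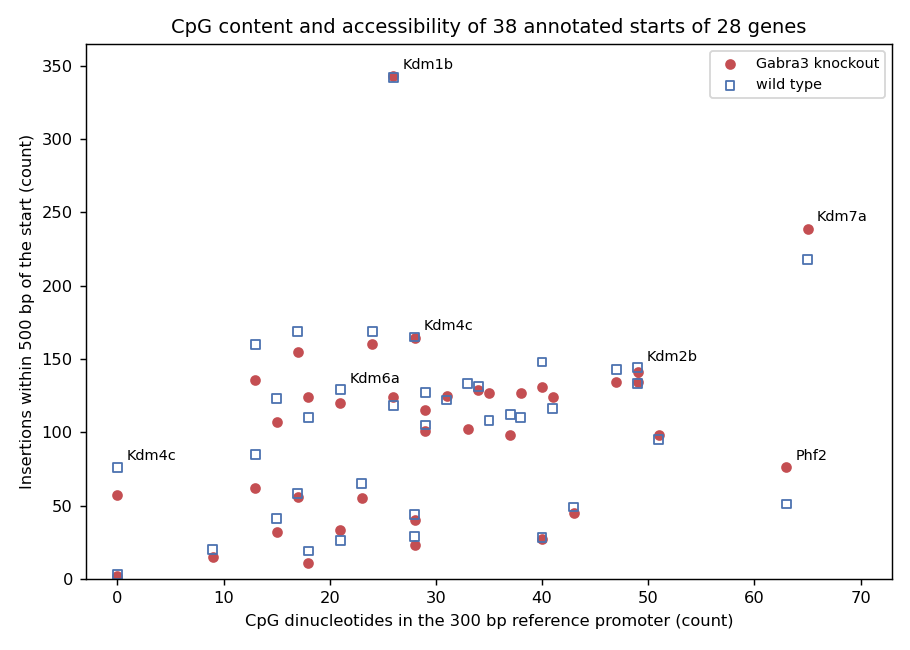
Number of CG dinucleotides in the 300-base RefSeq promoter (horizontal axis) against Tn5 insertions within 500 bp of the same start (vertical axis, count) for 38 annotated starts of 28 genes, in the Gabra3 knockout (filled circles) and in wild type (open squares). Kdm4c appears at both its starts, the outer with 0 CG dinucleotides and the inner with 28, and Kdm1b has the most insertions at 26 CG dinucleotides.

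Short motifs were searched on both strands of the same 28 sequences. The SP/KLF box GGGCGG was in 19 (67.9%), against 47.7% of all promoters and 74.0% of those with at least 100 insertions. In the same way, shares below are of all promoters and then of those with at least 100 insertions. The CCAAT box was in 13 (46.4%), against 38.9% and 41.9%, and these included Eed, Suz12 and Ezh2 of Polycomb complex 2. The YY1 core GCCATNTT was in 5 (17.9%), at Dot1l, Ehmt2, Kdm5c, Phf8 and Suv39h2, against 6.72% and 11.2%. The cAMP response element TGACGTCA was in 2, at Phf8 and Suv39h2, against 2.37% and 4.26%, and the E-box CACGTG was in 3, at Ehmt2, Kdm4c and Kdm6a, against 8.0% and 11.4%. The ETS core CCGGAA was in 4 (14.3%), against 19.6% and 35.1%, and the NRF1 core GCATGCGC was in 1, at Smyd2, against 3.68% and 7.43%. TATAAA was in 0 of the 28, against 13.0% and 5.21%, and TAATCC was in 0, against 6.45% and 5.38%. Of the starts printed above, the inner Kdm4c sequence holds the E-box 2 times and the outer Kdm2b sequence holds the CRX core 1 time. Such matches are letters only, and binding was not measured.

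Of 99 genes in 8 other lists of chromatin genes, 82 had an open promoter. Of the 67 promoters with at least 100 insertions, 0 were 1.5-fold or more higher in the knockout, where 0.520% of all were, and 0 were 1.5-fold or more lower, where 0.226% of all were. Their log2 ratios lay between -0.31 and 0.53. The 8 further Polycomb complex 2 subunits and partners held 725 insertions in the knockout and 784 in wild type (log2 ratio -0.05, -0.20 to 0.09). The most accessible was Jarid2, a partner that helps the complex to bind chromatin, with 194 in the knockout and 206 in wild type. The 18 genes of Polycomb complex 1, which ubiquitinates histone H2A, held 1732 in the knockout and 1740 in wild type (log2 ratio 0.05), with Cbx8 highest at 239 in the knockout and 245 in wild type. The 13 genes of the MLL family and of COMPASS subunits held 1273 in the knockout and 1352 in wild type (log2 ratio -0.03), with Cxxc1, the CpG-binding subunit, highest at 203 in the knockout and 212 in wild type. The most extreme ratios in these 3 lists were those of Rbbp7 at -0.22 (-0.59 to 0.14), Cbx2 at 0.38 (-0.08 to 0.86) and Kmt2d at 0.38 (-0.13 to 0.90), with intervals that include 0. An open region was found at 6 of the 8, 17 of the 18 and 11 of the 13 promoters of these lists, against the same 50.6% of all.

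Among the 13 other SET-domain methyltransferases, Setd3, which methylates actin, was highest with 257 in the knockout and 251 in wild type. Kmt5c, which carries H4K20 on from the mark made by Setd8, had the most extreme ratio, with 194 in the knockout and 246 in wild type (log2 ratio -0.28, -0.56 to -0.01). The 9 histone arginine methyltransferases held 1151 in the knockout and 1178 in wild type (log2 ratio 0.03). The list of other JmjC proteins, 11 genes, held 1013 in the knockout and 1012 in wild type (log2 ratio 0.06). That sum includes 2 genes whose proteins have no JmjC domain. These are Phf21a, with 118 in the knockout and 100 in wild type, and Rcor1, with 135 in the knockout and 164 in wild type. Carm1 was the highest of the arginine enzymes with 266 in the knockout and 276 in wild type, and Jmjd6 the highest of the JmjC proteins with 222 in the knockout and 229 in wild type. The 20 histone acetyltransferases and deacetylases held 1309 in the knockout and 1327 in wild type (log2 ratio 0.04), with Hdac2 highest at 155 in the knockout and 148 in wild type. The most extreme ratios were 0.20 (-0.29 to 0.70) for Prmt2, 0.33 (-0.22 to 0.89) for the JmjC gene Riox1 and 0.36 (-0.12 to 0.84) for Hdac3. The 7 genes of DNA methylation, of which 2 had at least 100 insertions, held 182 in the knockout and 151 in wild type (log2 ratio 0.33, 0.01 to 0.65), or 0.27 (-0.05 to 0.59) with all autosomal insertions as the scale. Within that list Dnmt3b, a de novo DNA methyltransferase, was highest with 71 in the knockout and 59 in wild type, and Tet2, which oxidises methylcytosine, had 60 in the knockout and 43 in wild type (log2 ratio 0.53, -0.05 to 1.14).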

How the data were processed

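ATAC-seq was measured in 1 Gabra3 knockout and 1 wild-type retina library, with single-end reads of 75 bp according to the labels. The submitters' processing notes name Trimmomatic 0.33, BWA and bedtools 2.23.0 with GRCm38 (mm10). What each tool did, the BWA version and whether duplicates were filtered is not given in the sources used here. Each line of the deposited files is an aligned read with its coordinates and a score, 9038110 reads for the knockout and 9170838 for wild type. That deposited score is the aligner's mapping quality, unnormalized.

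Reads with mapping quality of at least 10 were kept (93.4% in the knockout, 93.6% in wild type), 5-prime ends were shifted by 4 bp on the plus and -5 bp on the minus strand to the Tn5 insertion, and each position and strand was counted once. Single-end reads carry 1 end of a fragment, so fragments could not be compared. Open regions were called with Python 3.11.15, numpy 2.4.6 and scipy 1.17.1 as 200 bp windows in 50 bp steps whose count had a Poisson p under 1e-05, taking as background the genome mean or, where higher, the mean of the 10000 bp around, and windows up to 150 bp apart were merged. The gene table gives no strand, so the gene end with more insertions was taken as the promoter, and this was the RefSeq end at all 28 genes with a RefSeq strand. Choosing that end by its count favours open windows, for all genes alike. Ratios have a pseudocount of 0.5. No test between groups was made, as each genotype has 1 library. Thresholds were 1.5-fold, with at least 100 insertions for promoters and neighbourhoods and 50 for regions. Of the gene group, 27 promoters and all 37 neighbourhoods passed. The counting was checked on simulated data.

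The genes and lists were chosen with earlier results of these data known. Every gene was counted, and values were to be named for the 10 promoters with most and the 6 with fewest insertions, the 5 highest and 5 lowest promoter ratios, the 3 highest and 3 lowest neighbourhood ratios, Polycomb complex 2, X-linked genes, and any gene past 1.5-fold. From each other list the gene with most insertions and the one with the most extreme ratio were the candidates. Further genes named above, and the sequences printed, were chosen after their values were seen. Alternatives covered scaling, repeats, mapping quality, window, flank, pseudocount, shift, start, shared windows, minimum counts and the region threshold.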

Additional observations from a re-analysis of the deposited data

How the results depend on the processing

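The summed promoter ratio of the 37 genes was 0.02 and lay between -0.04, with all autosomal insertions, and 0.04, with RefSeq starts, under every alternative run, so its sign is not determined. The count of promoters 1.5-fold or more higher in the knockout was 1 (Phf2). It was 0 with all autosomal insertions, 0 with windows of 250 bp, where Phf2 fell under the minimum of 100, 0 with windows of 1000 bp, 0 with windows of their own only, which leaves Phf2 out, 0 at a fold of 2, and 2 with a minimum of 20, which adds Kdm6b. The Phf2 ratio was 0.68 with mapping quality of at least 30 and 0.63 with all reads counted. The summed neighbourhood ratio of 0.08 was 0.022 with all autosomal insertions and 0.017 in open regions only. The number of neighbourhoods with an interval above 0 was 6, and was 1 with all autosomal insertions and 1 in open regions only, while the number below 0 was 0, and was 2 with all autosomal insertions (Suv39h2 and Kdm6b). Promoter intervals above 0 numbered 1, against 0 with windows of 250 bp, 0 with 1000 bp, 0 with windows of their own only and 3 with all reads counted (Phf2, Ash1l and Kdm7a). Promoter intervals below 0 numbered 0, against 1 with all autosomal insertions (Suv39h2), 1 with windows of 1000 bp (Suv39h2) and 1 with mapping quality of at least 30 (Kdm3b). Apart from the cases explained here by construction, the cause was not tested. The other 72 values that answer a comparison stayed within 1.5 times of the reported count, within the reported interval or within 5 percentile points. At a Poisson p under 1e-07, 92 open regions and 33 open promoters remained. The median percentile of promoter level was 78.6 with windows of 250 bp, 82.0 with 1000 bp and 83.4 with all reads. The counts of intervals above or below 0 under other settings, the counts outside promoters and the sum without Phf2 were chosen after seeing the data. Under the other settings only the genes of the group were counted, so those counts have no share over all genes beside them. No paired analysis was possible because there was 1 library per genotype. The median share of reads at the promoters that repeated a position and strand was 25.3% in the knockout and 27% in wild type, and at the most open promoters separate insertions at the same base are also counted once.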
